A study of Mus musculus with 39 samples.

Results

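The subject is 9 mouse genes of peroxisomal fatty acid oxidation in liver: Abcd3, Ehhadh, Acaa1a, Acaa1b, Ech1, Eci2, Decr2, Crot and Hao2. Their probes were found by name, as those whose only gene symbol is one of these; they are 9 of 13840 genes that have such a probe. Each was measured by 1 probe, all 9 probes had a value on every one of the 39 arrays, and all 9 entered the tests, so no filter removed a member.

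Peroxisomes shorten very long, branched and other poorly used fatty acids by removing acetyl units from their coenzyme A esters. Abcd3 carries substrates into the organelle, oxidases make the first double bond, Ehhadh adds water and oxidises the product, and the thiolases Acaa1a and Acaa1b release acetyl-CoA. Ech1, Eci2 and Decr2 move or reduce double bonds of unsaturated substrates so that these can enter the cycle, Crot turns medium-chain products into carnitine esters that can leave, and Hao2 oxidises 2-hydroxy acids. In rodent liver the pathway is known as a target of PPARa, a nuclear receptor that fatty acids and fibrate-type drugs activate, and proliferation of peroxisomes with a rise of these enzymes is the textbook response to such drugs.

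Each array measured total RNA from the liver of an adult male mouse on a 129SV background, either wild type or PPARa-null, that is, lacking a working PPARa gene in the whole animal. PFOA, perfluorooctanoic acid given as the ammonium salt, is a persistent fluorinated fatty acid analogue; it was given at 1 or 3 mg/kg with plain deionised water as its control. Pirinixic acid, a synthetic PPARa activator that the labels and the plots name by its Wy code, was given at 50 mg/kg in 0.5% methylcellulose, and methylcellulose alone was its control. Gavage went on for 7 days in all groups, so every control was gavaged too. With both genotypes this gives 10 groups, 9 with 4 arrays and 1, wild type with methylcellulose, with 3. Values are log2 signals, differences are on the log2 scale with the standard error (SE) of the limma fit, and a gene is said to have risen or fallen where its limma p-value, adjusted by Benjamini-Hochberg over the 25295 probes tested, was under 0.05. Shares of probes said to be called or to change use the same adjusted p. For members counted at an unadjusted p, the share of all probes at that level is not given. In whole liver fewer cells of a type and less RNA per cell cannot be told apart.

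One array goes against its label in Cox6b2 and most members: replicate 3 of the group labelled as wild-type mice given 1 mg/kg PFOA. It is referred to as the array that stands apart. Cox6b2, a gene used as a check because earlier results of these data had shown that it separates the genotypes, was between 13.29 and 17.56 on the other wild-type arrays, between 6.91 and 10.05 on the null arrays, and 9.06 on this one. Ppara itself had signal in both genotypes, and over all groups its levels overlapped between them. On this array it was 16.20, above the null arrays at that dose (15.57 to 15.95) and below the other 3 of its group (16.66 to 16.81). Within every treatment all arrays labelled wild type were above the null ones in Ppara, this array included. 8 of the 9 members were below the other 3 arrays of the group on it, 5 were inside the range of the null arrays given the same dose, and all 9 were closer to the mean of those null arrays than to that of the other 3. This array enters the pooled error of the fit to all arrays, so results are also given without it. It was singled out in part by the low values of these same genes. In every comparison, smaller errors and added calls without it follow in part from that choice and are no separate test. Whether its label is wrong was not tested.

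**Figure D1:**
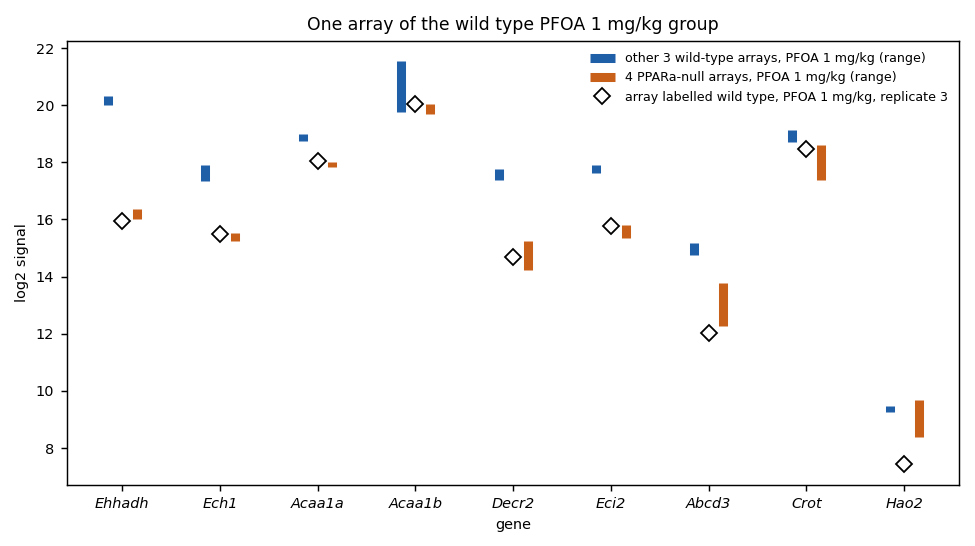
Log2 signal of each gene on the array that stands apart (open diamond), with the range of the other 3 wild-type arrays (blue bar) and of the 4 PPARa-null arrays (orange bar) at the same dose; levels of different genes are not comparable. The diamond lies below the blue bar for 8 genes, with Ehhadh at 15.94 against 20.01 to 20.31, and inside it for Acaa1b.

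All 9 genes were found in the RefSeq promoter table (GRCm38.p6). Of the 250 bases before the annotated start, 3 are shown: Ehhadh, which had the widest range of group means, Acaa1b, which alone passed the test in null mice, and Crot, which alone missed it in wild type at the high PFOA dose. These 3 windows overlap no annotated gene, all lie on the minus strand, and are at chr16:21787835-21788084, chr9:119157094-119157343 and chr5:8997147-8997396. Each is written 5′ to 3′ along the gene, and capitals mark a GC box (GGGCGG) or a CCAAT box (CCAAT), searched on both strands; the 2 motifs share no base in these windows.
Ehhadh: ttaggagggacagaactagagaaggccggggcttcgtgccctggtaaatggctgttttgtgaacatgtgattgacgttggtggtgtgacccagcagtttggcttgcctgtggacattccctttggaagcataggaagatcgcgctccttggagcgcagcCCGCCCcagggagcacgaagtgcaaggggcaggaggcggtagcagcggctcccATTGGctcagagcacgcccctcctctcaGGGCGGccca
Acaa1b: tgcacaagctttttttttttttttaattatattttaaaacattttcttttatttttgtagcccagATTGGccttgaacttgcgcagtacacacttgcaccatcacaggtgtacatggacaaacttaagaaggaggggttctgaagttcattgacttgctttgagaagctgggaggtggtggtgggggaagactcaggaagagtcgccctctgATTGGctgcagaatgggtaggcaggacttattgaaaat
Crot: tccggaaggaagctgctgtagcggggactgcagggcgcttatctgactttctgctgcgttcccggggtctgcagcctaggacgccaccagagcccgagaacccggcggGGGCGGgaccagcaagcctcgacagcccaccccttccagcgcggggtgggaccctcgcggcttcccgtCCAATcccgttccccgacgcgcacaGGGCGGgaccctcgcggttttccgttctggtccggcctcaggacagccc
The Ehhadh window holds 2 GC boxes and 1 CCAAT box, with 60.4% G and C. The Crot window holds the same numbers at 69.6% G and C. The Acaa1b window holds no GC box and 2 CCAAT boxes at 41.6% G and C, against a median of 52.4% over the 32851 windows of the table. Over the members, 6 of 9 genes have a GC box and 5 of 9 a CCAAT box, and 32.7% and 33.8% of all windows do. The direct repeat of AGGTCA with any 1 base between the copies, an idealised form of the element that PPARa binds with its partner receptor, was also searched on both strands. It is in none of the members' windows with up to 3 mismatches, where 0.0335% of all windows hold it exactly and 21.3% with up to 3; this says only that these letters are not in these windows. Acaa1a and Acaa1b are neighbouring copies on chromosome 9, at 119341028 to 119350296 and 119148043 to 119157093, with 183934 bases and 6 annotated genes between them. The probe sequences are not in the files, so how far the 2 probes read each other's transcript was not checked.

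In wild-type liver, PFOA at 3 mg/kg raised 8 of the 9 genes, all but Crot, and pirinixic acid raised 6: Ehhadh, Ech1, Acaa1a, Acaa1b, Crot and Hao2. At the same adjusted p, 5.82% of all tested probes changed with PFOA 3 mg/kg (3.37% rose) and 6.1% with pirinixic acid (2.8% rose). The median difference of the 9 was 1.70 with PFOA 3 mg/kg, where it was -0.02 over all probes, and 1.54 with pirinixic acid, where it was -0.03. All treated arrays were above all control arrays for 8 of 9 genes with PFOA 3 mg/kg and for 9 of 9 with pirinixic acid; 5.7% and 7.8% of all probes had treated arrays higher in this way. Without the array that stands apart the counts were 8 (6.21% of probes changed) and 9 (6.58%).

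**Figure D2:**
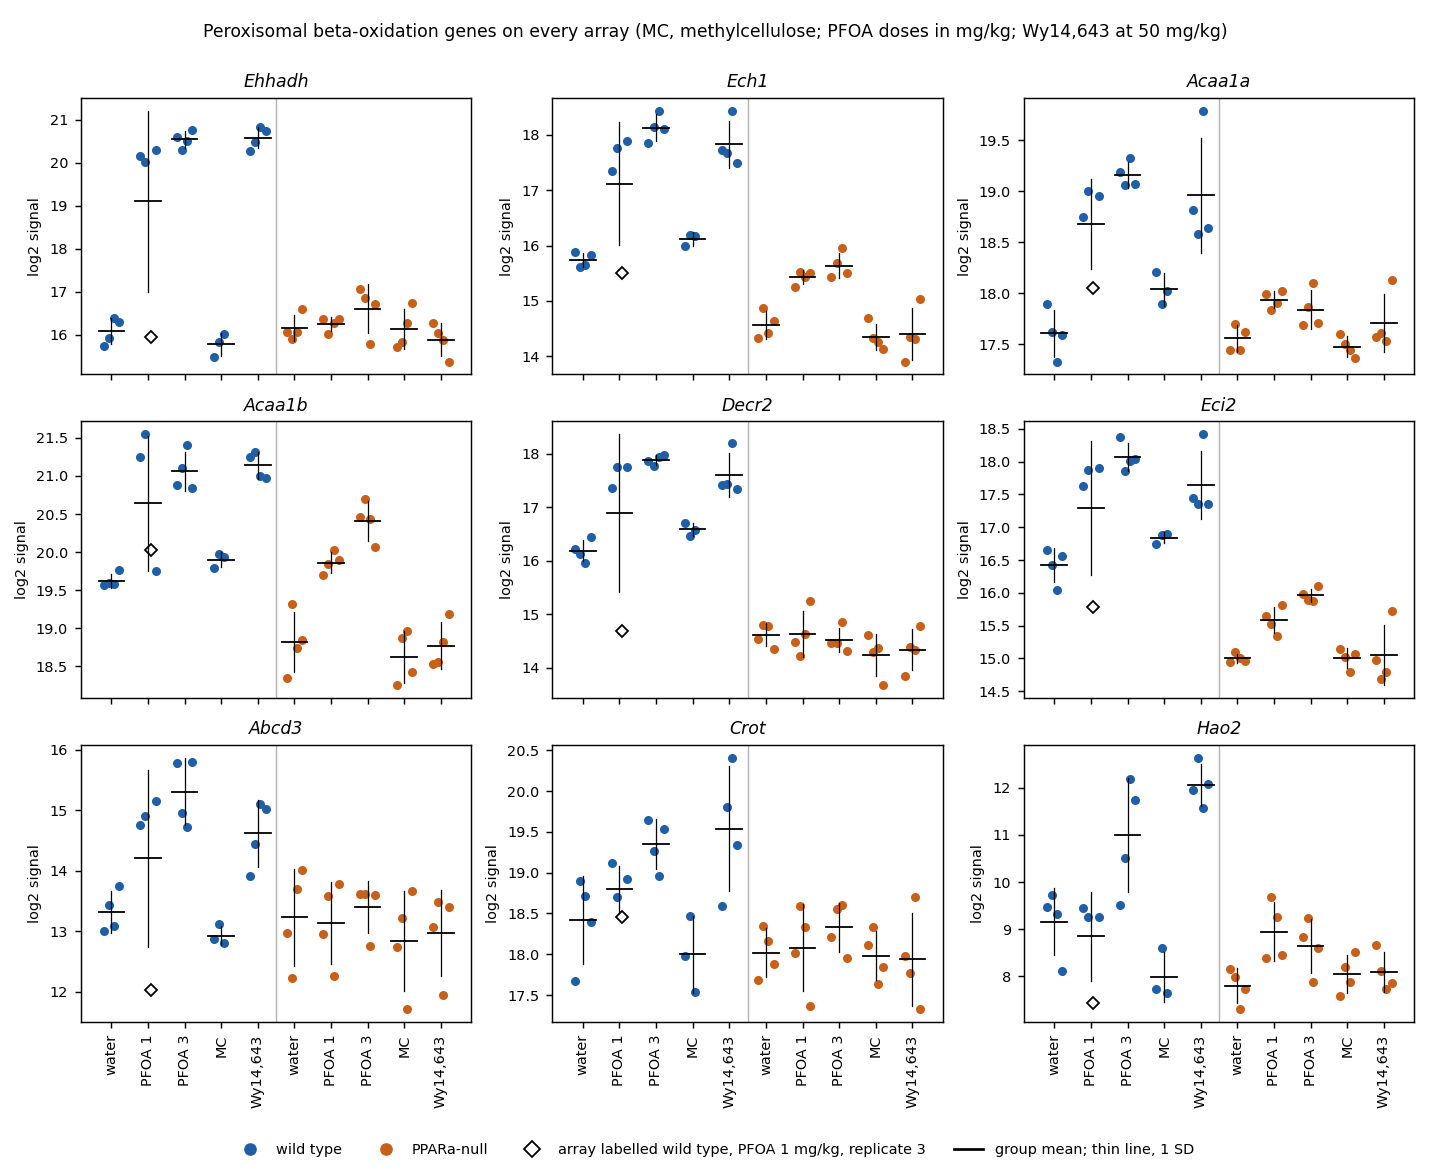
Log2 signal of the 9 genes on all 39 arrays (points) by group, with the group mean (line) and 1 SD (thin line); blue is wild type, orange PPARa-null, and the open diamond the array that stands apart. Treated wild-type arrays sit above their controls for most genes, Ehhadh by more than 4 log2 units at PFOA 3 mg/kg and with pirinixic acid. Among null groups, Acaa1b, Ech1 and Eci2 have all PFOA 3 mg/kg arrays above water, and Acaa1b alone passed with all 39 arrays fitted.

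Abcd3, the membrane transporter that feeds the pathway, was 13.01, 13.44, 13.09 and 13.75 on the wild-type water arrays and 15.78, 14.95, 14.72 and 15.79 after PFOA 3 mg/kg. The groups did not overlap, and 2 treated arrays lay about a log2 unit above the other 2. The difference was 1.99 ± 0.51 (3.96-fold, limma adjusted p = 0.0161), and it lost its call without PFOA 3 mg/kg replicate 4 (1.82, adjusted p = 0.052). With pirinixic acid Abcd3 was 13.92, 14.44, 15.10 and 15.02, against 12.88, 13.12 and 12.81 with methylcellulose. These groups did not overlap either, but the difference of 1.68 ± 0.55 missed the threshold (limma adjusted p = 0.0628) and passed it without pirinixic acid replicate 1 (1.92, adjusted p = 0.0361) or without the array that stands apart (0.0173). In null mice Abcd3 stayed between 11.72 and 14.02 in all 5 groups, with differences of 0.16 ± 0.51 for PFOA 3 mg/kg and 0.14 ± 0.51 for pirinixic acid.

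Ehhadh, the bifunctional enzyme of the middle steps, had the widest range of group means of the 9 genes (4.81). In wild type it was 15.74, 15.92, 16.38 and 16.30 with water and 20.61, 20.31, 20.51 and 20.77 with PFOA 3 mg/kg. With methylcellulose it was 15.49, 15.83 and 16.02, and with pirinixic acid 20.28, 20.49, 20.84 and 20.74. Treated and control arrays were about 4 log2 units apart with no array between them. The rise was 4.47 ± 0.52 with PFOA 3 mg/kg (22.1-fold, limma adjusted p = 1.03e-06) and 4.81 ± 0.56 with pirinixic acid (28-fold, adjusted p = 2.54e-06).

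In null mice Ehhadh was 16.06, 15.90, 16.07 and 16.59 with water and 17.07, 16.86, 15.79 and 16.71 with PFOA 3 mg/kg, so 3 treated arrays were above all water arrays and the fourth below them. The difference was 0.45 ± 0.52 (limma adjusted p = 0.876), 10.1% of the wild-type difference on the log2 scale. With pirinixic acid it was 16.27, 16.04, 15.88 and 15.37 against 15.72, 15.83, 16.27 and 16.75 with methylcellulose, a difference of -0.25 ± 0.52 (adjusted p = 1), and the groups overlapped. The genotypes themselves differed in these responses: null minus wild type was -4.01 ± 0.73 for PFOA 3 mg/kg (limma adjusted p = 0.00691) and -5.06 ± 0.76 for pirinixic acid (adjusted p = 0.000597).

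Of the thiolases, which cut off acetyl-CoA in the last step, both Acaa1a and Acaa1b rose in wild type with both compounds, and Acaa1b also rose in null mice given PFOA. Acaa1a was 17.90, 17.62, 17.33 and 17.59 in wild type with water and 19.19, 19.06, 19.33 and 19.07 with PFOA 3 mg/kg, with no overlap. The rise was 1.55 ± 0.20 (2.92-fold, limma adjusted p = 8.14e-06). With pirinixic acid it was 18.82, 18.58, 19.79 and 18.64, against 18.21, 17.90 and 18.02 with methylcellulose. Replicate 3 lay about a log2 unit above the other 3 treated arrays, and the rise of 0.92 ± 0.22 (1.89-fold, adjusted p = 0.00998) became 0.64 without it (adjusted p = 0.0566) and 0.84 without methylcellulose replicate 2 (adjusted p = 0.0558).

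Acaa1b was 19.57, 19.59, 19.58 and 19.76 in wild type with water and 20.88, 21.10, 21.40 and 20.84 with PFOA 3 mg/kg, with no overlap. The rise was 1.43 ± 0.27 (2.7-fold, limma adjusted p = 0.000706). With pirinixic acid it was 21.25, 21.32, 21.00 and 20.97 against 19.79, 19.97 and 19.93, a rise of 1.24 ± 0.29 (2.37-fold, adjusted p = 0.00758). The Acaa1b probe was among the 10 brightest probes on 7 arrays and the brightest on at least 1. The normalised values have the same maximum, 21.55, on every array, and a probe near it has limited room to read higher.

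In null mice Acaa1b was 18.35, 19.32, 18.74 and 18.85 with water, 19.70, 19.84, 20.03 and 19.89 with PFOA 1 mg/kg and 20.46, 20.70, 20.43 and 20.07 with PFOA 3 mg/kg. The 3 groups did not overlap and followed the dose. Acaa1b was the only one of the 9 genes to rise in null mice at 3 mg/kg, where 0.3% of all probes changed (0.261% rose), and 1 of 3 whose treated arrays were all above the controls, as were those of 2.47% of probes. The difference was 1.60 ± 0.27 (3.03-fold, limma adjusted p = 0.00137), and null minus wild type was 0.16 ± 0.38, with a 95% interval from -0.60 to 0.93 (adjusted p = 0.908). The treated wild-type arrays in that comparison, at 20.84 to 21.40, are near the maximum of the scale (21.55), where a higher signal has limited room. At 1 mg/kg it was 1.05 ± 0.27 (adjusted p = 0.579), with 0 of 9 genes called among 0.0119% of probes and 3 with an unadjusted limma p under 0.05; treated arrays were all above controls for 5 of 9 genes and 2.24% of probes. With pirinixic acid null Acaa1b was 18.53, 18.56, 18.82 and 19.19 against 18.25, 18.87, 18.96 and 18.42, a difference of 0.15 ± 0.27 with the groups overlapping. In null mice the Acaa1b response was larger with PFOA 3 mg/kg than with pirinixic acid by 1.45 ± 0.38, with a 95% interval from 0.68 to 2.21, and did not pass over all probes (adjusted p = 0.36).

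Acaa1a in null mice was 17.45, 17.70, 17.45 and 17.62 with water and 17.69, 17.87, 18.10 and 17.71 with PFOA 3 mg/kg, where the lowest treated array was just under the highest control. The difference was 0.28 ± 0.20 (limma adjusted p = 0.769). Null minus wild type was -1.26 ± 0.29 (adjusted p = 0.0362), a call that leaving out 1 array ended in 13 of 16 cases (adjusted p from 0.0305 to 0.0981). For pirinixic acid it was -0.68 ± 0.30 (adjusted p = 0.262).

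The 3 enzymes for unsaturated substrates, Ech1, Eci2 and Decr2, all rose with PFOA 3 mg/kg in wild type. Ech1, an isomerase that shifts paired double bonds, was 15.88, 15.62, 15.65 and 15.83 with water and 17.85, 18.14, 18.43 and 18.10 treated, with no overlap (2.39 ± 0.31, 5.23-fold, limma adjusted p = 7.3e-06). Eci2, an isomerase of single double bonds, was 16.65, 16.42, 16.05 and 16.56 with water and 18.38, 17.85, 18.01 and 18.04 treated (1.65 ± 0.30, 3.15-fold, adjusted p = 0.000476). Decr2, a reductase, was 16.22, 16.13, 15.96 and 16.44 with water and 17.86, 17.78, 17.94 and 17.98 treated (1.70 ± 0.39, 3.25-fold, adjusted p = 0.00593). In each case the lowest treated array was more than a log2 unit above the highest water array.

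With pirinixic acid all 3 had treated arrays above controls, and Ech1 alone passed. Ech1 was 17.72, 17.67, 18.44 and 17.49 against 15.99, 16.20 and 16.17 with methylcellulose (1.71 ± 0.33, 3.27-fold, limma adjusted p = 0.00191). Eci2 was 17.44, 17.35, 18.42 and 17.36 against 16.75, 16.88 and 16.90 (0.80 ± 0.32, adjusted p = 0.137). Decr2 was 17.42, 17.44, 18.21 and 17.34 against 16.71, 16.47 and 16.58 (1.02 ± 0.42, adjusted p = 0.15). In all 3 genes pirinixic acid replicate 3 was the highest array. Eci2 (adjusted p = 0.0225) and Decr2 (0.00732) passed without the array that stands apart.

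In null mice the 3 genes parted. Ech1 was 14.33, 14.88, 14.42 and 14.64 with water and 15.43, 15.68, 15.95 and 15.50 with PFOA 3 mg/kg, with no overlap; the difference of 1.07 ± 0.31 did not pass (limma adjusted p = 0.194). Eci2 was 14.94, 15.10, 15.01 and 14.96 with water and 15.99, 15.89, 15.87 and 16.10 treated, with no overlap and 0.96 ± 0.30 (adjusted p = 0.25). Decr2 was 14.54, 14.80, 14.78 and 14.35 with water and 14.47, 14.46, 14.86 and 14.31 treated, overlapping throughout, with -0.09 ± 0.39 (adjusted p = 0.973). Without the array that stands apart the differences stayed the same and the errors shrank. Ech1 (limma adjusted p = 0.00666) and Eci2 (0.0184) then passed beside Acaa1b (0.00067), 3 of 9 genes where 0.332% of probes changed. The added calls follow in part from how that array was singled out and are no separate test.

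The genotype difference in the PFOA 3 mg/kg response was called for 2 of 9 genes, Ehhadh and Acaa1a, where 0.415% of probes had one (0.332% lower in null). It was -1.79 ± 0.55 for Decr2 (limma adjusted p = 0.172), -1.32 ± 0.44 for Ech1 (0.224) and -0.69 ± 0.42 for Eci2 (0.555). Without the array that stands apart, Ech1 (adjusted p = 0.0164) and Decr2 (0.00143) passed too, 4 of 9 genes at 0.704% of probes.

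Crot, which prepares medium-chain acyl groups for export to mitochondria, was 17.67, 18.90, 18.72 and 18.39 in wild type with water and 19.64, 19.27, 18.96 and 19.54 with PFOA 3 mg/kg. The groups were only just apart, since water replicate 2 almost reached the lowest treated array, and the difference was 0.93 ± 0.32 (limma adjusted p = 0.0896). With pirinixic acid Crot was 18.59, 19.80, 20.41 and 19.34 against 17.98, 18.47 and 17.54, a rise of 1.54 ± 0.35 (2.91-fold, adjusted p = 0.00672). That call was lost without methylcellulose replicate 3 (1.31, adjusted p = 0.06). In null mice Crot was between 17.33 and 18.70 in all groups, and its differences were 0.32 ± 0.32 for PFOA 3 mg/kg and -0.04 ± 0.32 for pirinixic acid.

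Hao2, the hydroxy acid oxidase, was the dimmest of the 9 probes, brighter on average than 38.7% of the tested probes. In wild type it was 9.47, 9.72, 9.33 and 8.11 with water and 9.51, 10.52, 12.18 and 11.75 with PFOA 3 mg/kg. The groups overlapped at replicate 1 of the treated arrays, and the treated values spread over more than 2 log2 units. Olfactory, vomeronasal and taste receptor genes and keratin-associated genes, which liver should lack (583 probes), averaged 8.80 to 9.08 on these water arrays, so Hao2 there was at about that level and no fold is given. The rise was 1.83 ± 0.47 on the log2 scale (limma adjusted p = 0.0149), and it was lost without PFOA 3 mg/kg replicate 3 (1.44, adjusted p = 0.0979) or 4 (1.58, 0.0619) or without water replicate 4 (1.48, 0.0832).

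With pirinixic acid Hao2 was 11.96, 12.64, 11.58 and 12.07, against 7.73, 8.60 and 7.64 with methylcellulose. The lowest treated array was about 3 log2 units above the highest control, and the rise was 4.07 ± 0.50 on the log2 scale (limma adjusted p = 5.82e-06). The controls lie below the mean of the 583 probes on those arrays (8.76 to 8.77), so this is no measured fold. In null mice the values were 8.67, 8.12, 7.73 and 7.85 with pirinixic acid and 7.59, 8.20, 7.89 and 8.52 with methylcellulose, overlapping (0.04 ± 0.47, adjusted p = 1). Null minus wild type for pirinixic acid was -4.03 ± 0.69 (adjusted p = 0.00209). Hao2 and Ehhadh were the 2 of 9 genes with a genotype difference in this response, where 1.24% of probes had one (0.542% lower in null); Ech1 was the third without the array that stands apart (-1.66, adjusted p = 0.00214; 1.72% of probes). For PFOA 3 mg/kg null minus wild type was -0.99 ± 0.66 for Hao2 (adjusted p = 0.6).

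**Figure D3:**
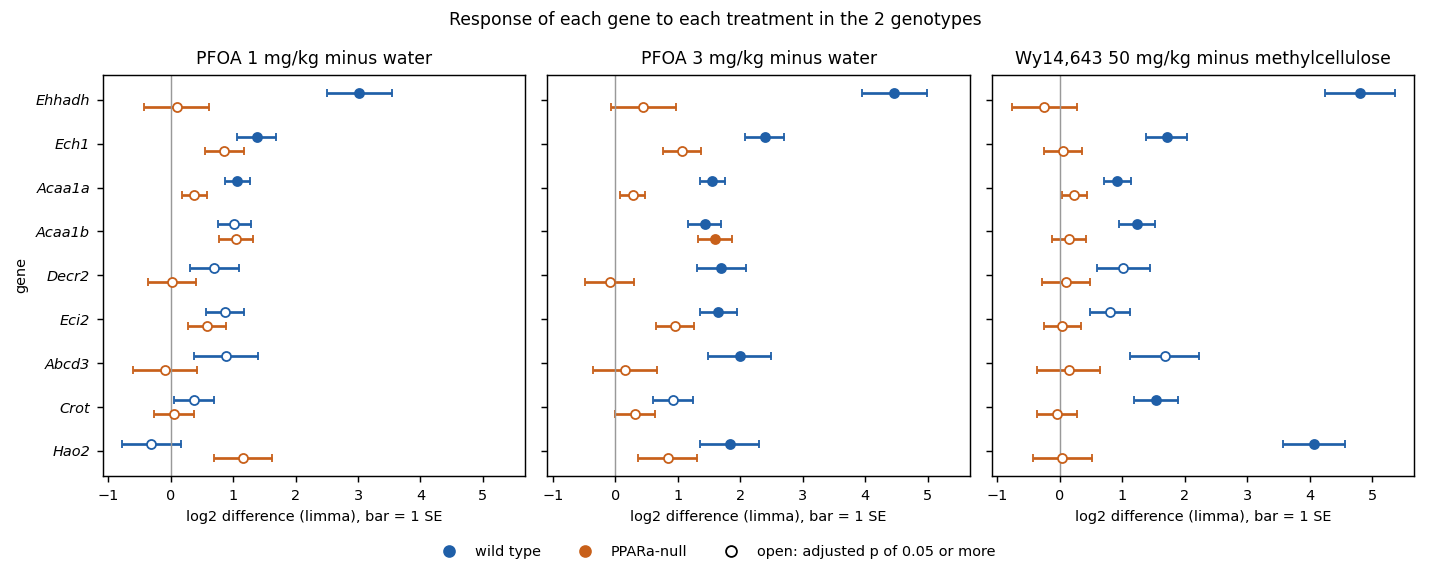
Log2 difference between treated and control groups (limma, bar = 1 SE) for each gene in wild-type (blue) and PPARa-null mice (orange); filled points have an adjusted p under 0.05 in the fit of all 39 arrays. At PFOA 3 mg/kg the points lie close for Acaa1b (1.43 in wild type, near the top of the scale, and 1.60 in null) and apart for Ehhadh (4.47 and 0.45); with pirinixic acid no orange point is filled.

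No member changed with pirinixic acid in null mice: 0 of 9 genes by limma, 0 with an unadjusted p under 0.05, and 0% of all probes. The 9 differences ran from -0.25 to 0.23 with a median of 0.05, and treated and control arrays overlapped for every gene, where 1.32% of probes had all treated arrays higher and 0.581% all lower.

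At 1 mg/kg in wild type, PFOA raised 3 of 9 genes, Ehhadh, Ech1 and Acaa1a, where 0.273% of probes changed (0.241% rose). Treated arrays were all above water for 1 of 9, Acaa1a, and for 2.91% of probes. Ehhadh was 20.17, 20.01, 15.94 and 20.31, so 3 arrays were level with the higher dose and replicate 3 with water; the fit gave 3.02 ± 0.52 (8.12-fold, limma adjusted p = 0.00249). Ech1 was 17.34, 17.77, 15.50 and 17.89, with 1.38 ± 0.31 (adjusted p = 0.0406), a call that was lost when any array other than that replicate 3 was left out (7 of 8 cases, adjusted p from 0.0532 to 0.241). Acaa1a was 18.75, 19.00, 18.05 and 18.95, with 1.07 ± 0.20 (adjusted p = 0.00757), and was lost without PFOA replicate 2 (0.97, adjusted p = 0.0663) or 4 (0.98, 0.0597) or water replicate 3 (0.98, 0.0576).

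Without the array that stands apart, 6 of 9 genes rose at 1 mg/kg and 0.984% of probes changed. That array was singled out in part by the low values of these same genes. The higher count and smaller p-values here follow in part from that choice and are no separate test. Ehhadh then rose by 4.08 ± 0.26 (limma adjusted p = 1.03e-11), Ech1 by 1.92 ± 0.22 (1.4e-06) and Acaa1a by 1.28 ± 0.20 (0.000228). Decr2 was 17.37, 17.76 and 17.75 on the remaining arrays and rose by 1.44 ± 0.24 (adjusted p = 0.000519), and Eci2 was 17.63, 17.87 and 17.90 and rose by 1.38 ± 0.22 (0.000303). Acaa1b was 21.25, 21.55 and 19.75, so that replicate 4 was level with the water arrays, and rose by 1.23 ± 0.27 (adjusted p = 0.0155); without replicate 4 in place of 3 it rose by 1.32 (0.0168). The genotype difference in this response was called by limma for 0 of 9 genes and 0% of probes. At an unadjusted p under 0.05 there were 3 genes, with no share of all probes given. Without the array that stands apart it was called for 1 of 9, Ehhadh (-3.98 ± 0.36, limma adjusted p = 6.26e-08), and for 0.162% of probes. Hao2 at this dose was 9.46, 9.25, 7.43 and 9.26, inside the range of the water arrays apart from replicate 3.

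Set against each other, the doses of PFOA gave no call among the 9 genes in either genotype. In wild type 7 of 9 had an unadjusted limma p under 0.05 for 3 against 1 mg/kg. The share of all probes at that unadjusted p is not given, and 0.0277% were called at the adjusted p. Without the array that stands apart, the 95% interval excluded 0 for 2 of 9, Ech1 (0.02 to 0.91) and Hao2 (0.73 to 2.60), again with no call (0.00791% of probes). In null mice 1 of 9, Acaa1b, had an unadjusted p under 0.05, and 0.00791% of probes were called at the adjusted p. Hao2 had the widest difference, 2.14 ± 0.47 in wild type (adjusted p = 0.1), passed without PFOA 3 mg/kg replicate 1 (2.63, adjusted p = 0.0191) and was 1.67 ± 0.46 without the array that stands apart (adjusted p = 0.575). For Ehhadh it was 1.45 ± 0.52 (adjusted p = 0.439), and 0.39 ± 0.26 (adjusted p = 1) without the array that stands apart. In null mice the Acaa1b difference between doses was 0.55 ± 0.27 (adjusted p = 0.999).

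The genotypes were also compared without treatment. With water, Eci2 was 16.65, 16.42, 16.05 and 16.56 in wild type and 14.94, 15.10, 15.01 and 14.96 in null mice, a difference of -1.42 ± 0.30 (limma adjusted p = 0.0461) that was lost when any 1 of the 8 arrays was left out (adjusted p from 0.0707 to 0.152). It was the only member called, where 0.127% of probes were (0.0712% lower in null). Decr2 (-1.57 ± 0.39, adjusted p = 0.127) and Ech1 (-1.18 ± 0.31, 0.163) also had null arrays entirely below the wild-type ones, as did Acaa1b (-0.81 ± 0.27, 0.367); 2.81% of all probes had this. Without the array that stands apart, Ech1 (adjusted p = 0.00229), Decr2 (8.7e-05) and Eci2 (0.00012) were lower, 3 of 9 genes at 0.297% of probes.

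With methylcellulose 3 of 9 genes were lower in null mice, again Decr2, Eci2 and Ech1, where 0.186% of probes were called (0.15% lower). Null arrays were all below wild-type ones for 5 of 9 genes and for 8.13% of probes. Decr2 was 16.71, 16.47 and 16.58 in wild type and 14.61, 14.30, 14.37 and 13.67 in null mice, a difference of -2.35 ± 0.42 (limma adjusted p = 0.00981). Eci2 differed by -1.84 ± 0.32 (adjusted p = 0.00879) and Ech1 by -1.77 ± 0.33 (0.0171). The Ech1 call was lost for 5 of the 7 arrays left out, that of Decr2 for methylcellulose replicates 1 and 3 of wild type (adjusted p = 0.0599 and 0.0622), and that of Eci2 for replicate 3 (0.0622). Acaa1b, at -1.27 ± 0.29, missed the threshold (adjusted p = 0.0527) and passed without the array that stands apart (0.0246), which gave 4 of 9 genes at 0.427% of probes.

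Ehhadh, the gene with the strongest response, had no mean below wild type in null mice: null minus wild type was 0.07 ± 0.52 with water and 0.36 ± 0.56 with methylcellulose, with groups overlapping on both vehicles. Abcd3 (-0.09 ± 0.51 and -0.10 ± 0.55) and Crot (-0.40 ± 0.32 and -0.02 ± 0.35) overlapped too. Hao2 was -1.36 ± 0.47 with water and 0.06 ± 0.50 with methylcellulose, its wild-type mean being 9.16 ± 0.71 (SD, n = 4) with water and 7.99 ± 0.53 (n = 3) with methylcellulose.

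**Figure D4:**
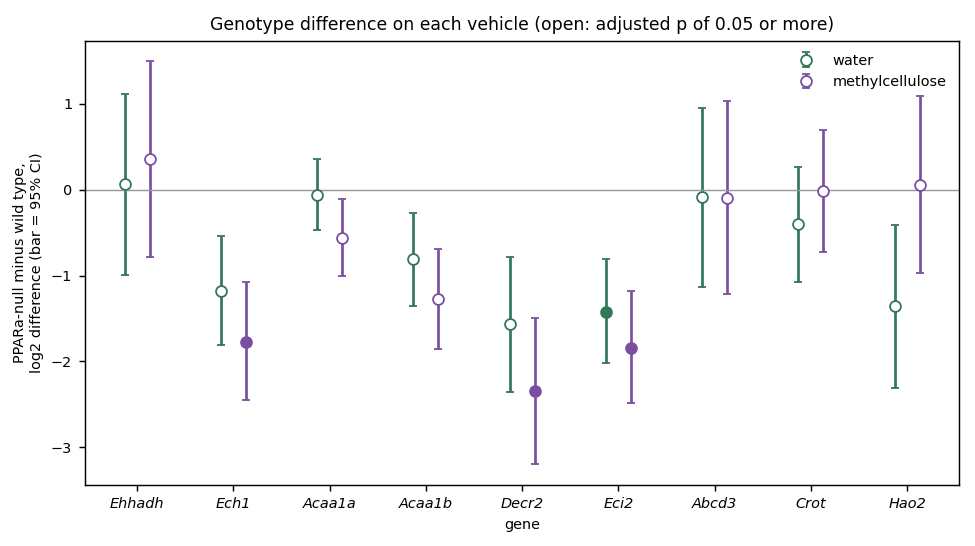
PPARa-null minus wild type for each gene with water (green) and methylcellulose (purple), as log2 difference with its 95% interval; filled points have an adjusted p under 0.05. Ech1, Decr2 and Eci2 are below 0 on both vehicles, from -1.18 to -2.35, and Ehhadh, Abcd3 and Crot have intervals that include 0 on both.

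Null mice given PFOA 3 mg/kg had a mean at or above that of wild type with water in some genes and below it in others. Null Ech1 after treatment averaged 15.64 ± 0.23 (SD, n = 4), next to 15.74 ± 0.13 in wild type with water, a gap smaller than the spread. Null Acaa1b averaged 20.41 ± 0.26, above wild type with water at 19.62 ± 0.09 by more than the spread. Null Eci2 averaged 15.96 ± 0.10 and stayed below wild type with water at 16.42 ± 0.26, and null Decr2 at 14.52 ± 0.23 stayed well below 16.19 ± 0.20.

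Ordered by group mean, the 3 treated wild-type groups were the highest for every gene other than Hao2. In Hao2 wild type with PFOA 1 mg/kg averaged 8.85 ± 0.95, below wild type with water. Most neighbours in these orders were closer than the larger of their standard deviations: of the 9 neighbouring pairs of a gene, between 1 (Ehhadh, Acaa1a, Abcd3, Crot and Hao2) and 4 (Eci2) had a wider gap. For Ehhadh that gap separated wild type with PFOA 1 mg/kg, at 19.11 ± 2.11, from null with PFOA 3 mg/kg, at 16.61 ± 0.57. The pooled standard deviation within groups ran from 0.278 (Acaa1a) to 0.755 (Ehhadh), where its median over all tested probes was 0.541.

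The responses to the 2 compounds were not called different for any member. PFOA 3 mg/kg against water minus pirinixic acid against methylcellulose gave 0 of 9 genes in wild type and 0 of 9 in null mice, at 0.0119% and 0.0474% of probes. At an unadjusted limma p under 0.05 there were 2 and 3 genes, with no share of all probes given. Both counts at the adjusted p were again 0 of 9 without the array that stands apart, at 0.0119% and 0.0395% of probes. The doses, vehicles and compounds all differ here, so values are given side by side: Ehhadh rose by 4.47 and 4.81 in wild type, Acaa1b by 1.43 and 1.24, and Hao2 by 1.83 and 4.07. The Hao2 difference of -2.24 ± 0.69 had a 95% interval from -3.64 to -0.84 (limma adjusted p = 0.243), and that of Ehhadh, -0.34 ± 0.76, one from -1.90 to 1.21, so neither is shown to be alike. Methylcellulose against water gave 0 of 9 genes in both genotypes and 0% of probes, with 1 unadjusted p under 0.05, Hao2 in wild type (-1.17 ± 0.50, adjusted p = 0.551), and 0 in null mice.

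For other genes of peroxisomal beta-oxidation, 14 were tested. PFOA 3 mg/kg in wild type raised 5 of the 14 and lowered 0, with a median of 0.29, where 5.82% of all probes changed (3.37% rose). Acot3, a thioesterase that frees fatty acids from coenzyme A, rose by 5.04 ± 0.78 (limma adjusted p = 8.02e-05), and Crat, the short-chain counterpart of Crot, by 2.98 ± 0.46 (8.13e-05). Acot8, another thioesterase, rose by 1.93 ± 0.29 (5.15e-05), Slc27a2, an acyl-CoA synthetase, by 0.85 ± 0.25 (0.0368), and Mlycd, malonyl-CoA decarboxylase, by 0.71 ± 0.21 (0.0397). The 9 that did not pass include the oxidases Acox2 (0.34 ± 0.15) and Acox3 (-0.52 ± 0.65), the sterol carrier thiolase Scp2 (0.13 ± 0.10) and the racemase Amacr (0.52 ± 0.19). In null mice 0 of 14 passed in either direction at PFOA 3 mg/kg, with a median of 0.10, where 0.3% of probes changed. The genotype difference passed for Acot3 (-5.64 ± 1.10, limma adjusted p = 0.0121) and Acot8 (-1.95 ± 0.41, 0.0203), and for 0.415% of probes.

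Pirinixic acid raised 5 of the same 14 genes in wild type and lowered 0, with a median of 0.65, where 6.1% of all probes changed (2.8% rose). The 5 were Acox2 (0.67 ± 0.16, limma adjusted p = 0.00864), Amacr (0.80 ± 0.21, 0.017), Acot5 (2.61 ± 0.68, 0.0174), Acot8 (1.37 ± 0.31, 0.00672) and Crat (2.36 ± 0.50, 0.00383). Acot3 was 1.32 ± 0.84 (adjusted p = 0.388), and Acot5 was 0.08 ± 0.63 with PFOA 3 mg/kg (0.969). The differences between compounds for these 2 thioesterases, 3.71 ± 1.15 for Acot3 and -2.53 ± 0.92 for Acot5, did not pass (adjusted p = 0.247 and 0.254). PFOA 1 mg/kg raised 1 of 14, Acot3 (3.83 ± 0.78, limma adjusted p = 0.0175), where 0.273% of all probes changed. Without the array that stands apart it raised 4 of 14, where 0.984% of all probes changed.

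Of 21 peroxisomal enzymes outside beta-oxidation, 18 were tested. PFOA 3 mg/kg raised 3 of them in wild type, the epoxide hydrolase Ephx2 (1.23 ± 0.27, limma adjusted p = 0.00446), the protease Lonp2 (0.72 ± 0.18, 0.012) and the glutathione transferase Gstk1 (0.52 ± 0.15, 0.0294), and lowered 1, Baat, which joins bile acids to amino acids (-0.76 ± 0.21, 0.0251). Their median was 0.29, and of all probes 5.82% changed (3.37% rose). Pirinixic acid raised 4 of 18 and lowered 3 with a median of -0.03, where 6.1% of all probes changed (2.8% rose). In null mice 0 of 18 passed with PFOA 3 mg/kg, where 0.3% of all probes did.

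Of 17 genes of mitochondrial beta-oxidation, 12 were tested. PFOA 3 mg/kg in wild type raised 10 of the 12 and lowered 0, with a median of 1.38; the counterparts of Decr2 and Eci2 in that organelle, Decr1 (2.13 ± 0.21, limma adjusted p = 8.76e-08) and Eci1 (2.18 ± 0.31, 2.5e-05), were among them. Pirinixic acid raised 6 of 12 with a median of 1.05. Of all probes, 5.82% changed in wild type with PFOA 3 mg/kg (3.37% rose) and 6.1% with pirinixic acid (2.8% rose). In null mice PFOA 3 mg/kg raised 1 of 12, the acyl-CoA dehydrogenase Acadl (1.32 ± 0.26, limma adjusted p = 0.00944), beside a median of 0.25, where 0.3% of all probes changed. Without the array that stands apart it raised 3 of 12, Acadl, Eci1 and Slc25a20, where 0.332% of all probes changed. The difference between these lists was not tested.

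**Figure D5:**
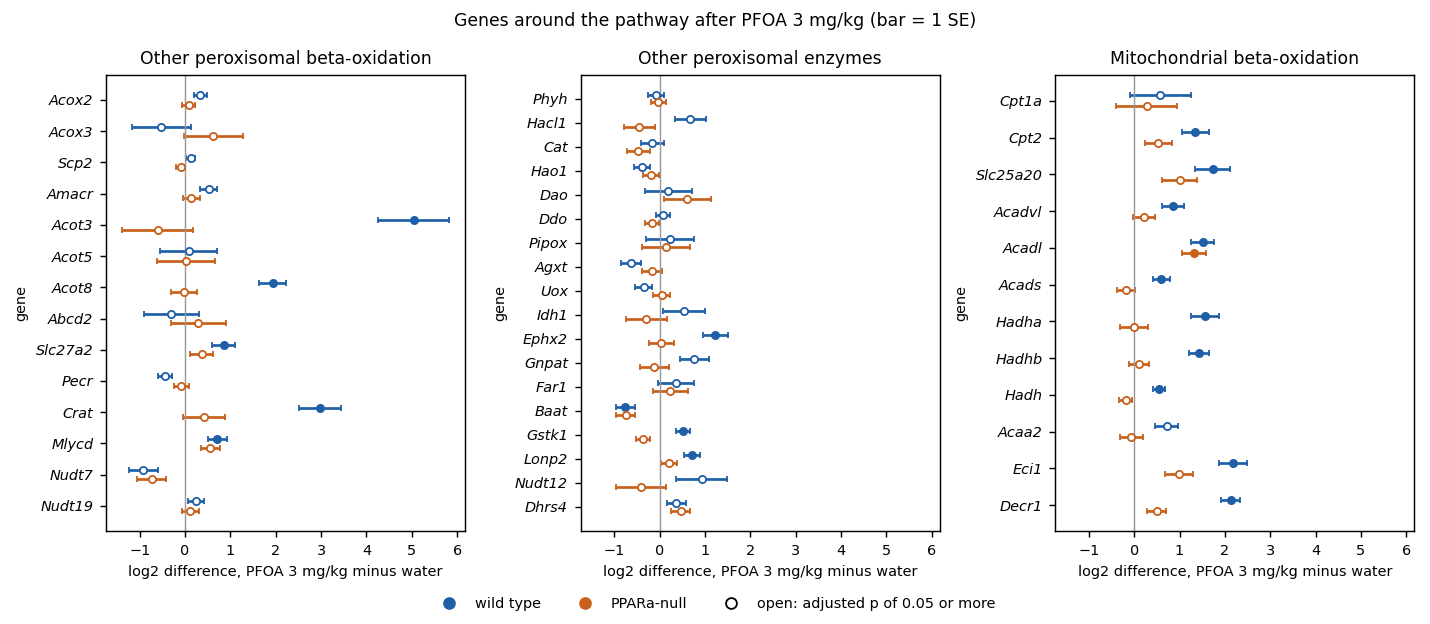
Log2 difference between PFOA 3 mg/kg and water (limma, bar = 1 SE) in wild type (blue) and PPARa-null mice (orange) for 14 other peroxisomal beta-oxidation genes, 18 other peroxisomal enzymes and 12 mitochondrial beta-oxidation genes; filled points have an adjusted p under 0.05. Acot3 is farthest to the right among wild-type points at 5.04, and Acadl at 1.32 is the filled null point.

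The members followed each other across the groups of the study, and far less within them. Over the 39 arrays Pearson's r between pairs of members ran from 0.608 to 0.971 with a median of 0.77 (36 pairs), which the shared groups set in part. After removing group means it ran from -0.00122 to 0.897 with a median of 0.313, and without the array that stands apart from -0.448 to 0.783 with a median of 0.0195. For Ech1 the last measure was 0.764 with Acaa1a, 0.701 with Decr2 and 0.583 with Eci2, and -0.403 with Ehhadh, -0.103 with Hao2, -0.0434 with Abcd3, 0.0402 with Crot and 0.165 with Acaa1b. Among 7965 other genes, those closest to the mean standardised pattern of the 9 were Ctse (r = 0.983), Eci1 (0.975), Retsat (0.972), Aldh3a2 (0.971) and Acot8, Decr1, Hadhb and Acadl (0.965 each), followed by Cyp4a31 (0.964) and Hsdl2 (0.957), all over the same 39 arrays.

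Other measures moved beside these results. The mean of 7 hepatocyte markers per array, at the bright end of the scale, was 20.39 to 20.51 in wild type with water and 19.85 to 20.12 with PFOA 3 mg/kg, without overlap. Of the 7, 2 fell, Ahsg and Fgb, where 5.82% of all probes changed. The mean was 20.34 to 20.54 with methylcellulose and 19.75 to 20.30 with pirinixic acid, where Ahsg and Trf fell and 6.1% of all probes changed. The marker genes in this paragraph are named after their values were seen. The mean of 6 Kupffer cell markers was 11.86 to 12.31 with water and 11.45 to 11.90 with PFOA 3 mg/kg, that of 8 endothelial markers 12.80 to 12.96 and 12.70 to 13.16, that of 6 stellate cell markers 11.64 to 11.91 and 11.37 to 12.16, and that of 4 cholangiocyte markers 9.25 to 9.58 and 9.05 to 9.50. Among these, Vsig4, Kdr, Stab2 and Dcn fell and Lyve1 rose with PFOA 3 mg/kg in wild type, and Clec4f, Vsig4, Kdr, Clec4g, Ptprb and Tek fell with pirinixic acid. In null mice given PFOA 3 mg/kg, Acaa1b rose and 0.3% of all probes changed. There 1 of 6 stellate cell markers rose, Col1a1 (3.10 ± 0.38, 8.59-fold, limma adjusted p = 1.52e-05), and no other marker of these 5 lists passed. The median difference of the 6 stellate cell markers was -0.14 in the fit without the array that stands apart. Their list mean was 11.99 to 12.54 with water and 12.05 to 12.63 treated. The part of these shifts in the members' values was not tested. The arrays also fall into sets of 16 and 23 by 84 probes, a split that no label names. Wild-type pirinixic acid arrays were all 4 in the larger set, where methylcellulose had 2 of 3, and null water arrays were 3 to 1 in the smaller one. Within the larger set all 9 members were higher with pirinixic acid, and 2 passed; 7 did with the set as a block. All 9 members were higher with PFOA 3 mg/kg in wild type within each set, Ehhadh by 4.67 and 4.26, and 5 and 4 of them passed. Null Acaa1b was higher by 1.62 and 1.25 but did not pass (limma adjusted p = 0.0824 and 0.779). With the set as a block the counts of members stayed at 8 and 1. The share of all probes called within a set or with the block is not given beside these counts. A count that moves therefore need not be particular to the members. Abcd3 had the widest difference between the sets within groups of the 9 genes (0.54). Its higher wild-type arrays with PFOA 3 mg/kg, 15.78 and 15.79, were in the smaller set, and the lower, 14.95 and 14.72, in the larger.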

How the data were processed

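RNA from the liver of 1 animal was measured on each of 39 Applied Biosystems mouse arrays, per the labels. The values used are log2 signals as deposited by the authors; they hold the same quantiles on every array, and base 2 was taken from their range, since no label states it. Of 33012 probes, 25295 with a value on every array were tested; 1.15% of values were missing. limma 3.58.1 in R 4.3.3 fitted 1 mean per group to all arrays at once, with 29 residual degrees of freedom, 17 comparisons and Benjamini-Hochberg adjustment over all tested probes in each; the threshold was 0.05 and intervals are 95%. The code was tested on simulated data. Genes were named through single-symbol probes, and the array annotation can be old. The members and the gene lists were chosen with earlier results of these data known. All 9 members are described. From the other peroxisomal beta-oxidation list any measured gene could be named, and from the remaining pathway lists up to 4 per comparison, those with the smallest adjusted p. The 10 genes most like the members were ranked by Pearson's r. Array weights, groups fitted alone, array sets, a covariate, other normalisation and filters, a replicate block and leaving out each array were the alternatives. Leaving the array that stands apart out of every comparison was added after its values were seen. The number of arrays limits the precision.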

Additional observations from a re-analysis of the deposited data

Results flagged for a closer look

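In 81 gene and group combinations with 4 arrays, 10 had an array whose gap to its neighbour was wide for the range of the group; chance marks about 1 in 20 groups. Of these, 5 lie on wild type PFOA 1 mg/kg replicate 3. It read 15.94 for Ehhadh, 14.68 for Decr2, 15.78 for Eci2, 12.03 for Abcd3 and 7.43 for Hao2, in each case the lowest of its group. Wild-type pirinixic acid replicate 3 read high for Decr2 (18.21) and Eci2 (18.42). The others were Acaa1a at 18.13 on null pirinixic acid replicate 4, Acaa1b at 19.76 on wild-type water replicate 4 and Abcd3 at 12.76 on null PFOA 3 mg/kg replicate 3.

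The genotypes differed in their response in 4 cases by limma's test of that difference, null minus wild type. For PFOA 3 mg/kg it was -4.01 for Ehhadh and -1.26 for Acaa1a, and for pirinixic acid -5.06 for Ehhadh and -4.03 for Hao2.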

How the results depend on the processing

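Counts are members called by limma out of 9. The share of all probes called under each setting is not given beside them, so a count that moves need not be particular to the members. With array weights they were 5 for PFOA 1 mg/kg in wild type, 3 for PFOA 3 mg/kg in null mice, 1 and 4 for the genotype difference in the PFOA 1 mg/kg and pirinixic acid responses, 4 for null against wild type with water, and 1 for PFOA 3 mg/kg against pirinixic acid responses in wild type. With only the groups compared they were 0 for PFOA 1 mg/kg, 2 for pirinixic acid and 0 for null PFOA 3 mg/kg, 4 for the genotype difference at PFOA 3 mg/kg, and 2 and 0 for genotype with water and methylcellulose. In the smaller array set they were 5 and 1 for PFOA 3 and 1 mg/kg in wild type, 0 in null at 3 mg/kg, 1 for the genotype difference at that dose, and 0 for genotype on either vehicle; in the larger set 4, 0, 0, 0, 0 and 0, with 2 for pirinixic acid and 0 for its genotype difference. Probes with missing values and a covariate from silent genes each gave 1 for the genotype difference at PFOA 3 mg/kg and 0 for genotype with water, and the covariate 1 for PFOA 1 mg/kg. The cause was not tested.

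Leaving out 1 array gave 6 to 8 for PFOA 3 mg/kg, 1 to 6 for 1 mg/kg and 5 to 7 for pirinixic acid in wild type, and 1 to 1 for PFOA 3 mg/kg in null mice. The genotype differences gave 1 to 2, 0 to 1 and 2 to 3 at PFOA 3 mg/kg, 1 mg/kg and pirinixic acid. Genotype gave 0 to 0 with water and 0 to 3 with methylcellulose, and dose in wild type 0 to 1. The fit without the array that stands apart gave 3 for null PFOA 3 mg/kg, 4 for its genotype difference, and 3 and 4 for genotype with water and methylcellulose. No called member changed sign under these settings; members that were not called did, such as Hao2 at PFOA 1 mg/kg in wild type (-0.31, and 0.17 without the array that stands apart).

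The labels name no pairing, and not every same-numbered pair passed the correlation limit (r from -0.263 to 0.479, median 0.101, against -0.042 for other numbers), though 26 of 39 arrays were closest to one of their own number, a hint from the data. With a replicate block the counts were 8, 3 and 7 for PFOA 3 mg/kg, 1 mg/kg and pirinixic acid in wild type, 1 for null PFOA 3 mg/kg, 2 and 3 for genotype differences at PFOA 3 mg/kg and pirinixic acid, and 1 and 3 for genotype with water and methylcellulose. Averaging a gene's probes was not run, each member having 1.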
